A study of Mus musculus with 4 samples.

Results

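Follistatin and 9 further genes that encode secreted antagonists or extracellular modulators of bone morphogenetic proteins (BMPs) were followed in sorted dermal cells of 2 embryonic mouse skins. The members are Fst, Fstl1, Fstl3, Nog, Grem1, Chrdl1, Twsg1, Nbl1, Sostdc1 and Bmper. They were taken by gene name, and all 10 were found, each as 1 entry with an OK status in each library, out of 33064 named gene units. The dermal cells came from skin of the ventral foot (E17.5 embryos) or of the dorsal back (E14.5 embryos) that carried an Axin2-LacZ reporter, and each was sorted into an Axin2-LacZ positive and an Axin2-LacZ negative fraction. Axin2 is a feedback gene of canonical Wnt signalling, so the reporter stands for cells that respond to Wnt. This gave 4 groups of 1 library, written here as foot+, foot-, back+ and back-, where the sign is the reporter label of the library and not its measured Axin2. The sources used here do not give the strain, the zygosity of the reporter or how many embryos were pooled. With 1 library per group no difference has a replicate check and no p-value is given. Site and stage changed together between foot and back and cannot be told apart.

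BMPs are secreted dimers that signal through paired serine/threonine kinase receptors to SMAD proteins. Antagonists bind the ligands outside the cell and keep them from the receptors, and they differ in which ligands they hold. Follistatin binds activins most tightly and some BMPs as well, noggin and gremlin hold BMPs, and the cysteine-rich proteins of the chordin group can either block or carry BMPs. In skin, the balance of BMPs and their antagonists between dermis and epidermis takes part in the choice and spacing of appendages. Hair forms in back skin and sweat glands in ventral foot skin.

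Levels are given in FPKM (fragments scaled to transcript length and to library size) as the authors deposited them, with the lower and upper bound of the file. The bounds describe counting and read assignment in 1 library, not variation between embryos. Their median half-width in coding genes of at least 5 FPKM was 23.0% and 14.1% of the level in foot+ and foot-, and 8.98% and 9.93% in back+ and back-. By this median foot values had the wider error, but for Fst the half-widths were 8.40% and 7.14% in the foot and 15.3% and 16.8% in the back. Ratios between libraries are log2 ratios of (rescaled FPKM + 1), where FPKM was first divided by a median-ratio factor per library, and the value after ± is a half-width that joins the bounds of both libraries. Axin2 was lower in foot+ (9.65 FPKM) than in foot- (12.9 FPKM), against the labels, and higher in back+ (4.49 FPKM) than in back- (3.13 FPKM). After rescaling its bounds overlapped between the fractions of both skins, with log2 ratios of positive over negative of -0.19 ± 0.45 and 0.23 ± 0.25. Directions between sorted fractions therefore rest on the labels. All 10 markers of dermal fibroblasts (Col1a1, Pdgfra, Twist2 and others) were above 0 in every library, with a summed level of 3211 to 7288 FPKM. Keratinocyte, endothelial, leukocyte and mast cell markers are given beside some of the results, whether or not they run the same way. Fewer cells of a type and less RNA per cell cannot be told apart in such bulk libraries.

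In the foot, 5 of the 10 members were higher than in the back in both libraries: Fst, Fstl1, Sostdc1, Nbl1 and Twsg1. For each of them the rescaled bounds of both foot libraries lay above those of both back libraries, as they did for 15.0% of the 6922 coding genes of at least 5 FPKM in any library. This grouping does not depend on which foot library is the positive one. The reverse order held for 12.7% of those coding genes, and among the members for Grem1 alone, which stayed under 5 FPKM in all 4 libraries. Fstl3, Nog, Bmper and Chrdl1 had bounds that overlapped between at least 1 foot and 1 back library.

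**Figure D1:**
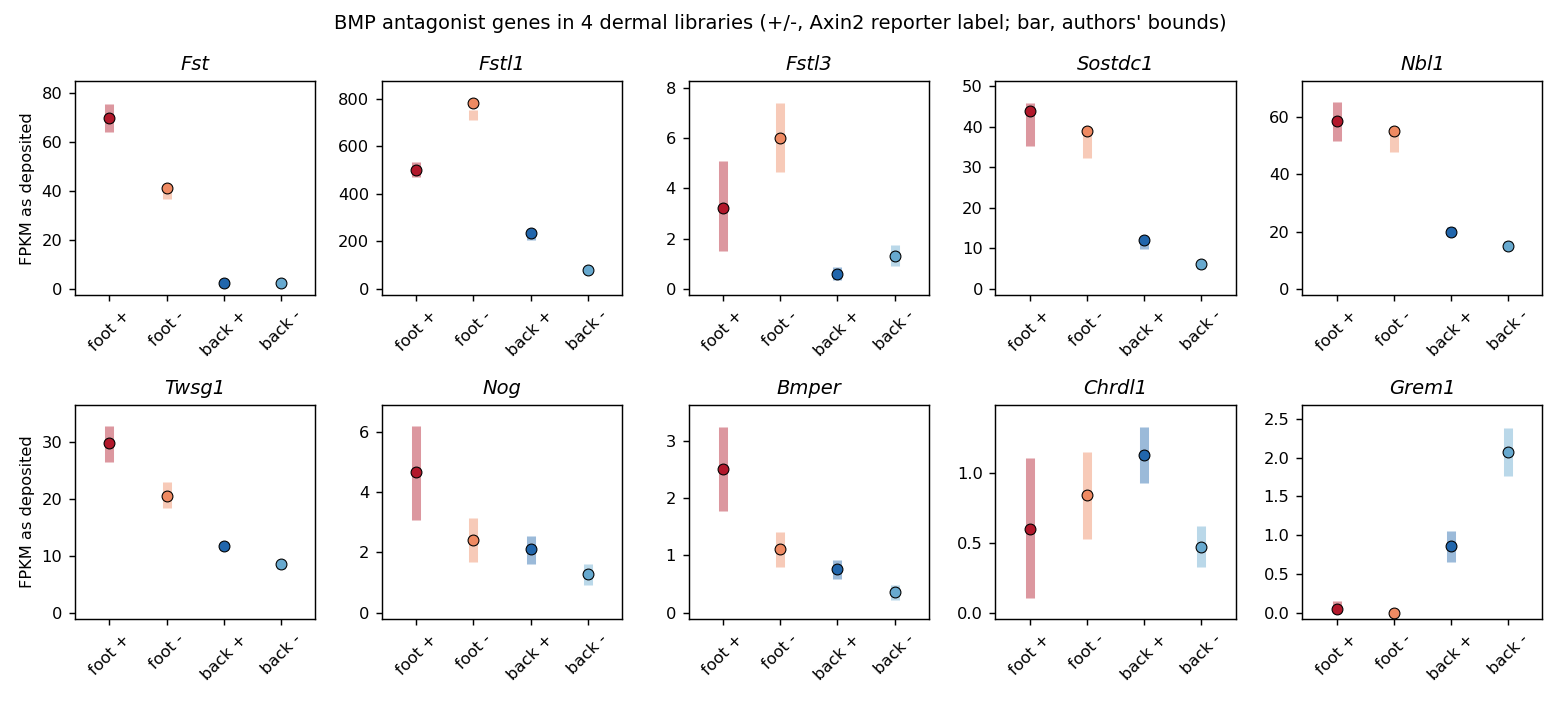
FPKM as deposited (vertical axis, linear, 1 scale per gene) of the 10 BMP antagonist genes in the 4 libraries, with + and - for the Axin2 reporter label; points are the deposited values and bars the authors' lower and upper bounds. Fst lies at 69.8 and 41.3 FPKM in the foot and at 2.53 and 2.36 FPKM in the back, and Grem1 has its highest value of 2.08 FPKM in the back library labelled negative.

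Among the follistatin group, Fst differed most between the skins. The gene of follistatin itself lies at chr13:115242469-115249159 on mm9, as the files give it. Its level was 69.8 FPKM (bounds 63.9 to 75.6) in foot+ and 41.3 FPKM (36.7 to 42.6) in foot-, against 2.53 FPKM (2.15 to 2.92) in back+ and 2.36 FPKM (1.96 to 2.75) in back-. Both foot libraries were high and both back libraries low, with no overlap, and the back libraries did not differ from each other beyond their bounds. The log2 ratio of foot over back was 4.13 ± 0.20 for the positive label, which is 17.6-fold, and 3.09 ± 0.21 for the negative label, which is 8.50-fold. Fst exceeded 96.2% and 93.1% of coding genes in foot+ and foot-, and 65.6% and 67.1% in back+ and back-. Its rank among the 10 members was 2 in foot+, 3 in foot- and 5 in both back libraries.

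Fstl1 encodes a secreted glycoprotein with a follistatin-like domain that has been described in mouse lung as a BMP4 antagonist. It was the highest member in every library, at 501 FPKM (469 to 533) in foot+, 782 FPKM (711 to 754) in foot-, 235 FPKM (205 to 218) in back+ and 78.5 FPKM (77.3 to 81.7) in back-. The foot values lay above both back values, but the fractions went opposite ways, with the higher value in foot- and in back+. The values of 782 and 235 FPKM lie above their own upper bounds. The log2 ratio of foot over back was 0.87 ± 0.10 for the positive label and 2.64 ± 0.06 for the negative label. When the midpoint of the bounds stood in for the values outside them, the former became 1.01 and passed the 2-fold line. Fstl1 made up 70.1%, 82.5%, 82.0% and 67.5% of the summed FPKM of the 10 members, in the order foot+, foot-, back+ and back-.

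Fstl3, which encodes a secreted relative of follistatin that binds activins and myostatin, was low. It measured 3.20 FPKM (1.52 to 5.09) in foot+, 6.01 FPKM (4.65 to 7.37) in foot-, 0.615 FPKM (0.351 to 0.878) in back+ and 1.32 FPKM (0.913 to 1.74) in back-. In both skins the fraction labelled negative had the higher value, and only the back pair had bounds apart. The log2 ratio of foot over back was 1.25 ± 0.67 for the positive label and 1.11 ± 0.39 for the negative label. Exons of Fstl3 overlap those of Prss57 on the other strand, and exons of Fst those of the antisense gene Gm47040, in GENCODE on GRCm38. The sources used here do not say whether the counting used strand, so reads of these pairs cannot be told apart.

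The cystine-knot antagonists Sostdc1 and Nbl1 were higher in the foot under both labels. Sostdc1, also called ectodin or Wise, encodes an antagonist of BMPs that also binds Wnt co-receptors, which makes it the member with a direct tie to the pathway of the reporter. Its level was 44.0 FPKM (35.4 to 45.9) in foot+, 39.1 FPKM (32.4 to 39.9) in foot-, 12.1 FPKM (9.98 to 12.2) in back+ and 6.27 FPKM (5.02 to 6.75) in back-. The log2 ratio of foot over back was 1.57 ± 0.23 for the positive label and 1.85 ± 0.24 for the negative label, and the foot pair lay far above the back pair. Nbl1, which encodes the founding member of the DAN family of BMP antagonists, reached 58.5 FPKM (51.8 to 65.3) in foot+ and 55.1 FPKM (47.9 to 56.7) in foot-, against 20.1 FPKM (18.6 to 21.5) in back+ and 15.1 FPKM (13.7 to 16.7) in back-. Its log2 ratios of foot over back, 1.29 ± 0.19 and 1.15 ± 0.18, differed by less than their half-widths between the labels.

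Sostdc1 and Fst are also known from skin epithelium, so the keratinocyte list was read beside them. Of its 10 markers, 7 were measured as units of their own, with a summed level of 7.70 FPKM in foot+, 0.184 FPKM in foot-, 33.6 FPKM in back+ and 13.8 FPKM in back-. Krt5, Krt14 and Krt15, the basal keratins, were listed at 0 in both foot libraries, and in the back they were joined with other keratins in entries of 4.15 to 25.6 FPKM. Cdh1, Epcam, Trp63 and Krt8 were listed at 0 in both foot libraries as well. Krt10 had 7.38 FPKM in foot+, was listed at 0 in foot-, and had 23.5 FPKM in back+ and 6.63 FPKM in back-. Krt1 had 0.183 FPKM in foot+ and was listed at 0 in foot-, and Sfn had 0.146 and 0.184 FPKM in these libraries. In back+ Krt1 and Sfn had 3.73 and 3.65 FPKM, and in back- 2.51 and 3.14 FPKM. The part of epithelial cells in the levels of Fst and Sostdc1 was not tested.

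Nog and Grem1, which encode the BMP antagonists noggin and gremlin 1, were near the low end. Nog had 4.65 FPKM (3.09 to 6.19) in foot+, 2.42 FPKM (1.67 to 3.15) in foot-, 2.13 FPKM (1.63 to 2.55) in back+ and 1.27 FPKM (0.911 to 1.61) in back-. After rescaling, foot+ stood apart from the other 3 libraries, and foot- overlapped both back libraries. Grem1 had 0.0520 FPKM (0 to 0.148) in foot+ and was listed at 0 in foot-, against 0.856 FPKM (0.655 to 1.06) in back+ and 2.08 FPKM (1.76 to 2.39) in back-. Both back libraries were above both foot libraries, and the log2 ratio of foot over back for the positive label was -0.87 ± 0.19. The added 1 understates the size of such ratios of low genes.

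The chordin group divided. Twsg1, which encodes a BMP-binding protein that works together with chordin, reached 30.0 FPKM (26.5 to 33.0) in foot+, 20.5 FPKM (18.5 to 23.0) in foot-, 11.7 FPKM (11.0 to 12.4) in back+ and 8.50 FPKM (7.65 to 9.04) in back-. The foot values were the higher ones, and the fraction labelled positive was the higher one in each skin. The log2 ratio of foot over back was 1.08 ± 0.17 for the positive label and 0.56 ± 0.19 for the negative label, and the latter was 1.18 as deposited. Bmper, which encodes a chordin-like modulator also known from endothelium, had 2.51 FPKM (1.78 to 3.24) in foot+, 1.11 FPKM (0.799 to 1.42) in foot-, 0.760 FPKM (0.597 to 0.918) in back+ and 0.357 FPKM (0.225 to 0.488) in back-. Its values fell into the same order as those of Twsg1. The 8 endothelial markers summed to 0.979 FPKM in foot+, 0.461 FPKM in foot-, 7.94 FPKM in back+ and 6.57 FPKM in back-, and 6 of them (Pecam1 and Cdh5 included) were listed at 0 in both foot libraries. The others, Kdr and Tek, had 0.824 and 0.155 FPKM in foot+, against 0.431 and 1.19 FPKM in back+. The part of endothelial cells in the level of Bmper was not tested. Chrdl1, which encodes a chordin-like BMP antagonist, had 0.600 FPKM (0.105 to 1.1) in foot+, 0.837 FPKM (0.526 to 1.15) in foot-, 1.13 FPKM (0.925 to 1.33) in back+ and 0.470 FPKM (0.323 to 0.616) in back-. The bounds of foot and back overlapped for Chrdl1 under either label.

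By level, Fstl1, Nbl1, Sostdc1 and Twsg1 stood above Nog, Fstl3, Bmper, Chrdl1 and Grem1 in every library. Fst was among the high members in the foot but near the low ones in the back. After Fstl1, foot+ held Fst, Nbl1, Sostdc1, Twsg1, Nog, Fstl3, Bmper, Chrdl1 and Grem1 in that order, and the bounds of Fst and Nbl1, of Nog and Fstl3, of Fstl3 and Bmper, and of Chrdl1 and Grem1 overlapped. In foot-, Nbl1 came next after Fstl1, and Fst and Sostdc1 followed with overlapping bounds. Nbl1 came next after Fstl1 in both back libraries as well, followed in back+ by Sostdc1 and Twsg1, whose bounds overlapped, and in back- by Twsg1 and then Sostdc1. Fst came after these, with bounds that overlapped those of Nog in back+ and those of Grem1 in back-. Without Fstl1 the members summed to 213 FPKM in foot+, 166 FPKM in foot-, 51.8 FPKM in back+ and 37.8 FPKM in back-.

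Counted by a 2-fold line with the larger FPKM at least 5, Fst, Twsg1, Nbl1 and Sostdc1 were higher in the foot for the positive label. Of 6279 coding genes, 31.0% were that far apart in either direction, 1069 of them higher and 876 lower in the foot. Under the negative label Fst, Fstl1, Fstl3, Nbl1 and Sostdc1 were higher, against 28.1% of 6231 coding genes in either direction, 1051 of them higher and 701 lower. Without rescaling the coding genes divided into 1373 higher and 684 lower, and into 2350 higher and 291 lower. No member of at least 5 FPKM was lower in the foot under either label. By rescaled bounds, all 5 members of at least 5 FPKM for the positive label and all 6 for the negative label were apart and higher in the foot, where 58.8% and 66.3% of coding genes were apart in either direction. Fst and Fstl3 passed 5 FPKM through foot libraries alone, so these counts are a description. The median log2 ratio of the 5 and the 6 members was 1.29 and 1.5, where that of all coding genes was 0.10 and 0.14.

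**Figure D2:**
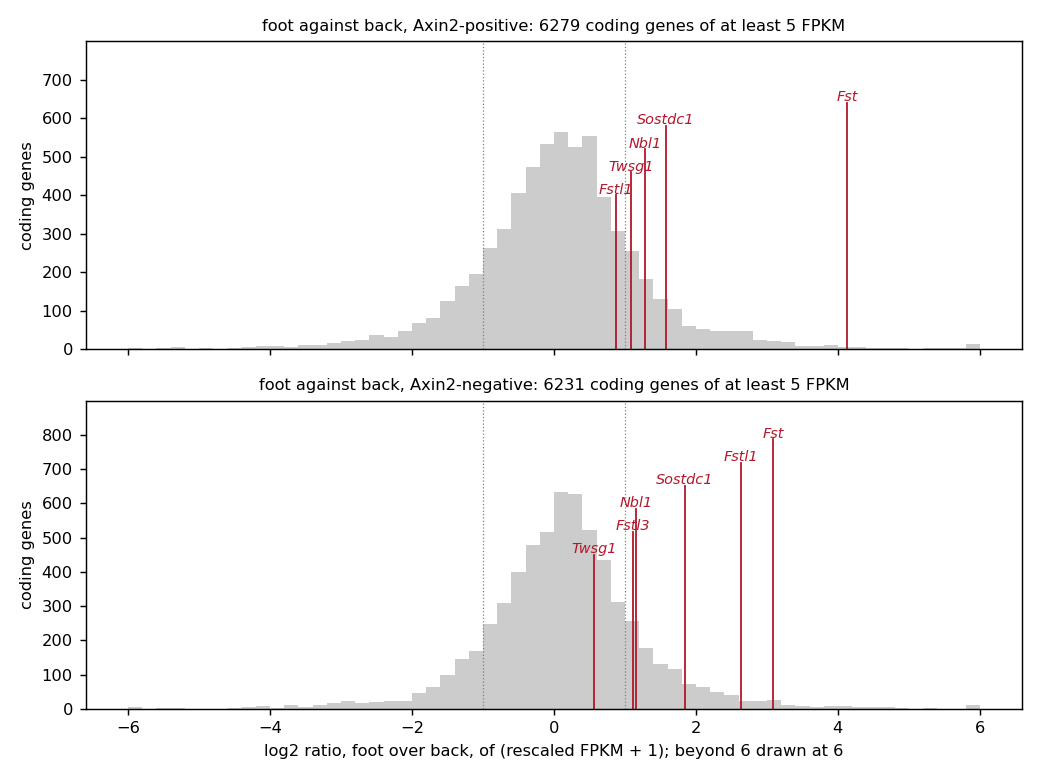
Number of coding genes (vertical axis) by log2 ratio of foot over back (horizontal axis, rescaled FPKM + 1) for the libraries labelled positive (upper panel) and negative (lower panel); red lines mark the BMP antagonist genes of at least 5 FPKM and dotted lines the 2-fold line. Fst lies at 4.13 and 3.09, and Twsg1 is at 1.08 in the upper panel and 0.56 in the lower one.

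Between the sorted fractions of the foot, Fst and Twsg1 were higher in foot+ and Fstl1 was higher in foot-. The log2 ratio of positive over negative was 0.94 ± 0.16 for Fst, 0.72 ± 0.21 for Twsg1, 0.37 ± 0.23 for Sostdc1, 0.29 ± 0.20 for Nbl1 and -0.44 ± 0.10 for Fstl1. These 5 of the 6 members of at least 5 FPKM had bounds apart after rescaling, as did 42.5% of 6476 coding genes, but without rescaling the count of such members was 3. No member reached the 2-fold line in the foot, which 21.8% of coding genes passed. Fst was closest to it, reached 1.02 when the factors were taken from genes of at least 10 FPKM, and had 0.74 as deposited. Nog and Bmper, both under 5 FPKM, had ratios of 0.85 ± 0.50 and 0.81 ± 0.35, with bounds apart. The summed level of 6 mast cell markers was 2.17 FPKM in foot+ and 265 FPKM in foot-, and its part in these ratios was not tested. Of these markers, Mcpt4 and Ms4a2 were listed at 0 in both foot libraries, and Cpa3 in foot+ but not in foot-.

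In the back, Fstl1 had the largest difference between the fractions among the 10 members. Its log2 ratio of positive over negative was 1.33 ± 0.06, or 2.52-fold, and it was the only member past the 2-fold line, which 7.67% of 5292 coding genes passed. Sostdc1 followed at 0.64 ± 0.23 and Twsg1 at 0.20 ± 0.14. These 3 of the 4 members of at least 5 FPKM had bounds apart, as did 45.7% of coding genes. Nbl1, at 0.15 ± 0.17, and Fst, at -0.10 ± 0.24, did not differ beyond the bounds. Grem1 and Fstl3, both low, were higher in back-, with log2 ratios of -0.92 ± 0.23 and -0.69 ± 0.38, and Chrdl1 and Bmper were higher in back+, with 0.47 ± 0.22 and 0.32 ± 0.22. Nog had 0.33 ± 0.33. The 8 leukocyte markers, all above 0 in both back libraries, summed to 4.52 FPKM in back+ and 15.5 FPKM in back-. The 6 mast cell markers, of which Mcpt4 was listed at 0 in both, summed to 24.7 and 84.1 FPKM, and the 10 dermal fibroblast markers to 4526 and 3211 FPKM. The part of these cells in the ratios was not tested.

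**Figure D3:**
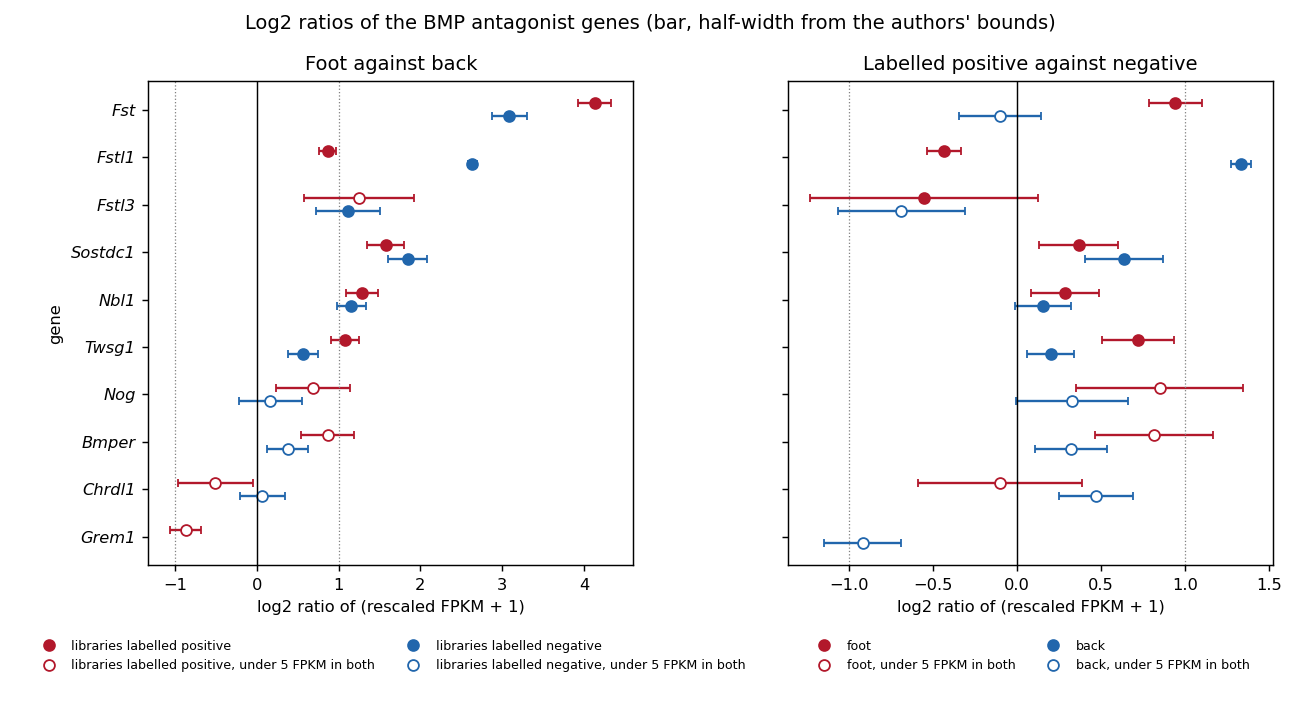
Log2 ratios of rescaled FPKM + 1 (horizontal axes) of the 10 genes, foot over back on the left and labelled positive over negative on the right; points are the ratios, bars the half-widths from the authors' bounds, open points genes under 5 FPKM in both libraries and dotted lines the 2-fold line. On the right, Fstl1 lies at -0.44 for the foot fractions and 1.33 for the back fractions, and the 2 Grem1 ratios against a library listed at 0 are not drawn.

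Set against each other with the fractions as labelled, the skins differed past the 2-fold line for Fstl1 and Fst. The foot ratio minus the back ratio was -1.77 ± 0.12 for Fstl1 and 1.05 ± 0.29 for Fst, and 27.2% of 6922 coding genes passed that line as well. Fst had 0.67 as deposited, under the line. Twsg1 had 0.52 ± 0.25, so Fst, Fstl1 and Twsg1 exceeded their half-widths, as did 55.6% of coding genes, while Sostdc1 (-0.27 ± 0.33), Nbl1 (0.13 ± 0.26) and Fstl3 (0.13 ± 0.78) did not exceed theirs. As deposited, Twsg1 had 0.11 and Sostdc1 -0.68. These differences rest on the foot labels, which the Axin2 transcript went against.

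RefSeq promoter windows, 250 bases before to 50 bases after the gene start on GRCm38.p6, were at hand for 6 of the 10 members: Fstl1, Fstl3, Grem1, Twsg1, Nbl1 and Bmper. They were searched on both strands for CTTTGA, the core bound by the TCF/LEF partners of beta-catenin, for GGCGCC, a GC-rich element bound by SMAD proteins, and for TATAAA, the TATA box. No match overlapped another. Windows of 3 members that were higher in both foot libraries, and of Grem1, which was higher in both back libraries, are printed 5′ to 3′ on the strand of the gene, with matches in capitals.
Fstl1, chr16:37776805-37777104, plus strand: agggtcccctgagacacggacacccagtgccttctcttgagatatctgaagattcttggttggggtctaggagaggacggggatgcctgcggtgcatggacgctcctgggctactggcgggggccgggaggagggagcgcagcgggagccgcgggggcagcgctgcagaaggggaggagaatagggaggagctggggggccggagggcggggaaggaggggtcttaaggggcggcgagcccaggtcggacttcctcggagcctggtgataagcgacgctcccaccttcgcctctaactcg
Nbl1, chr4:139092921-139093220, minus strand: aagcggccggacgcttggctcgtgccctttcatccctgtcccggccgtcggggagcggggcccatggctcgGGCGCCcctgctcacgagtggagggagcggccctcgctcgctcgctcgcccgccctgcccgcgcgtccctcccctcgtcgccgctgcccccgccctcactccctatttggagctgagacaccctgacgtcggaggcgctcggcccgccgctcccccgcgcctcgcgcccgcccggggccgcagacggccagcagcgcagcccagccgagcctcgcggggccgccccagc
Twsg1, chr17:65951138-65951437, minus strand: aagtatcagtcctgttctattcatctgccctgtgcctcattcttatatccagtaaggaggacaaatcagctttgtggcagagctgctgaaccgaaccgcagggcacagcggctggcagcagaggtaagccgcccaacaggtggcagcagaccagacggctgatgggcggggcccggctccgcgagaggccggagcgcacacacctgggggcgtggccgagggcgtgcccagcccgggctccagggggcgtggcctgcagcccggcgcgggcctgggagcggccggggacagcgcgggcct
Grem1, chr2:113758599-113758898, minus strand: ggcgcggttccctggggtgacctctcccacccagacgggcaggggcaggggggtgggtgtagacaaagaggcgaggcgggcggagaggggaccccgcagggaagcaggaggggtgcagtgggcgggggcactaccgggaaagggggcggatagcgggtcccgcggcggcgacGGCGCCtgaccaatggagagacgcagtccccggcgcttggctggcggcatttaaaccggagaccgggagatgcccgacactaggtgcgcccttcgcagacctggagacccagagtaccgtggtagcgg
The capitals in Nbl1 and Grem1 are GGCGCC, which starts at -179 and -78 from the gene start, and 11.9% of all 32851 windows hold it. The windows of Fstl1 and Twsg1 hold none of the 3 motifs. Among the members with a window, CTTTGA was found in that of Bmper alone, starting at -210 on the other strand, and 16.0% of all windows hold it. TATAAA was found in that of Fstl3 alone, at -29 on the other strand, and 13.6% of all windows hold it. The 6 windows were 66.7% to 78.3% G and C, where the median of all windows was 52.7%.

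Other genes of the pathway were read from lists to place the antagonists. Among 17 other extracellular or membrane antagonists that were measured and are reported, 3 had at least 5 FPKM for the positive label, of which Htra1 passed the 2-fold line as higher in the foot. Under the negative label 4 had at least 5 FPKM, of which 2 were higher (Htra1 and Dand5). Htra1, which encodes a secreted protease that acts on TGF-beta family signalling, was the highest of them by the mean of the 4 libraries, at 183 FPKM in foot+, 88.8 FPKM in foot-, 32.0 FPKM in back+ and 14.6 FPKM in back-. Its log2 ratio of foot over back was 2.26 ± 0.18 for the positive and 1.88 ± 0.16 for the negative label, and that of foot+ over foot- was 1.23 ± 0.18. Smoc2, an extracellular matrix protein gene, was above Htra1 in both back libraries and level between the skins for the positive label, at 51.1 FPKM in the foot and 49.1 FPKM in the back (-0.16 ± 0.17). Dand5, a DAN family gene, had 6.14 FPKM in foot- and was listed at 0 in the other 3 libraries, so the filter set its direction. Of coding genes, 31.0% were 2-fold apart in either direction for the positive label and 28.1% for the negative label. Kcp, which encodes a chordin-like protein that enhances BMP signalling in mouse kidney, had a log2 ratio of positive over negative of 1.25 ± 0.38 in the back. There it reached 5 FPKM in back+ alone (10.3 against 3.21 FPKM), so the filter set its direction. Between the back fractions, 7.67% of coding genes were 2-fold apart in either direction.

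Some of the ligands that these proteins bind also differed between the skins. Of 12 measured BMP and GDF ligand genes, 3 had at least 5 FPKM for the positive label, of which 2 were at least 2-fold higher in the foot, and 5 for the negative label, of which 4 were. All of them were under 5 FPKM in both back libraries and passed the filter through the foot alone, so the direction of these counts was set by the filter. Of coding genes, 31.0% and 28.1% were at least 2-fold apart in either direction under the positive and the negative label. Bmp5 had 11.5 FPKM in foot+ and 9.85 FPKM in foot-, against 0.168 FPKM in back+ and 0.214 FPKM in back-, with log2 ratios of foot over back of 3.29 ± 0.26 and 2.80 ± 0.26. Bmp3, which encodes a BMP that can oppose other BMPs, had 6.91 FPKM in foot+, 8.55 FPKM in foot-, 1.17 FPKM in back+ and 0.185 FPKM in back-. Bmp4, a ligand that noggin holds, was closer between the skins, with 6.14 FPKM in foot+, 8.94 FPKM in foot-, 3.43 FPKM in back+ and 4.85 FPKM in back-. Bmp2 had 5.32 FPKM in foot- and 0.985 FPKM in back-, a log2 ratio of 1.22 ± 0.26. Gdf10 differed between the foot fractions, with a log2 ratio of foot+ over foot- of -2.15 ± 0.41, and was higher in foot- than in back- by 2.25 ± 0.23 on the log2 scale.

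Activin genes were low, and Inhba differed from foot to back under the positive label. Inhba, which encodes the subunit of activin A, the ligand that follistatin holds most tightly, had 0.155 FPKM in foot+, 4.31 FPKM in foot-, 6.0 FPKM in back+ and 4.46 FPKM in back-. The library highest for Fst, foot+, was the lowest for Inhba, with a log2 ratio of foot over back of -2.70 ± 0.42 for the positive label, while foot- and back- were less far apart (-0.58 ± 0.34). Inhbb, which encodes the subunit of activin B, had 0.557 FPKM in foot+, 0.855 FPKM in foot-, 4.58 FPKM in back+ and 2.58 FPKM in back-. Inhba alone of the 8 genes on this list reached 5 FPKM in any library. It did so in back+ alone, so the filter set its direction under the positive label. Of 6279 coding genes, 31.0% were 2-fold apart in either direction under that label.

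Receptor genes were mixed. Bmpr1a, a type I BMP receptor gene, had 25.3 FPKM in foot+, 24.8 FPKM in foot-, 10.5 FPKM in back+ and 7.54 FPKM in back-, and its log2 ratios of foot over back, 0.99 ± 0.17 and 0.98 ± 0.10, stayed just under the 2-fold line. The BMP co-receptor genes Rgma and Rgmb were higher in the back, at log2 ratios of foot over back of -2.40 ± 0.99 (Rgma) and -2.22 ± 0.35 (Rgmb) under the positive label and -2.21 ± 0.38 and -1.92 ± 0.19 under the negative one. Of 12 measured genes on this list, 5 had at least 5 FPKM for the positive label (Acvr2b past the 2-fold line as higher in the foot, Rgma and Rgmb as lower) and 4 for the negative label (0 higher and 2 lower). Of coding genes, 31.0% and 28.1% were that far apart in either direction. Under the positive label Acvr2b reached 5 FPKM through foot+ alone, and Rgma and Rgmb through back+ alone. Under the negative label Rgma reached it through back- alone. The filter set the direction in these cases. Acvr2b, a type II activin receptor gene, and Acvr1, a type I receptor gene for BMPs, were higher in foot+ than in foot-, by log2 ratios of 2.60 ± 0.76 and 1.41 ± 0.71. Their levels were 6.77 and 9.14 FPKM in foot+ against 0.234 and 3.17 FPKM in foot-, so the filter set these directions too. Between the foot fractions, 21.8% of 6476 coding genes were 2-fold apart in either direction.

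Genes that respond to BMP signalling were read last, on a list that also holds Smad1, Smad5 and Smad9, which encode SMADs that carry the signal. Of 12, 7 had at least 5 FPKM, and under the positive label 4 of these (Id2, Id4, Smad7 and Smad5) passed the 2-fold line as higher in the foot and 0 as lower. Under the negative label Smad7 passed that line as higher and Id1 as lower. Of coding genes, 31.0% and 28.1% were that far apart in either direction under these labels. Id4 under the positive label and Smad7 under each label reached 5 FPKM through the foot alone, so the filter set their direction. Id2, the highest of the 12 on average, had 349 FPKM in foot+, 345 FPKM in foot-, 118 FPKM in back+ and 127 FPKM in back-. Smad7, which encodes an inhibitory SMAD, had log2 ratios of foot over back of 1.23 ± 0.61 and 1.45 ± 0.42. Smad5, which encodes a SMAD that BMP receptors activate, had 1.02 ± 0.21 for the positive label. Id1 followed neither skin, with 177 FPKM in foot+, 104 FPKM in foot-, 81.3 FPKM in back+ and 269 FPKM in back-, and its log2 ratio of back+ over back- was -1.96 ± 0.11. Id4 was lower in back+ than in back- as well (-1.80 ± 0.34), and its log2 ratio of foot+ over back+ was 2.24 ± 0.41. Between the back fractions, 6 of the 12 had at least 5 FPKM, with bounds apart and higher in back- for Id1, Id2 and Id4 and higher in back+ for Id3 (0.33 ± 0.09) and Smad1 (0.29 ± 0.15). Of 5292 coding genes, 45.7% had bounds apart in either direction between these fractions. The 2-fold line, which Id1 and Id4 passed, was passed by 7.67% of them. Id4 reached 5 FPKM through back- alone (8.73 against 2.30 FPKM), so the filter set its direction there.

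**Figure D4:**
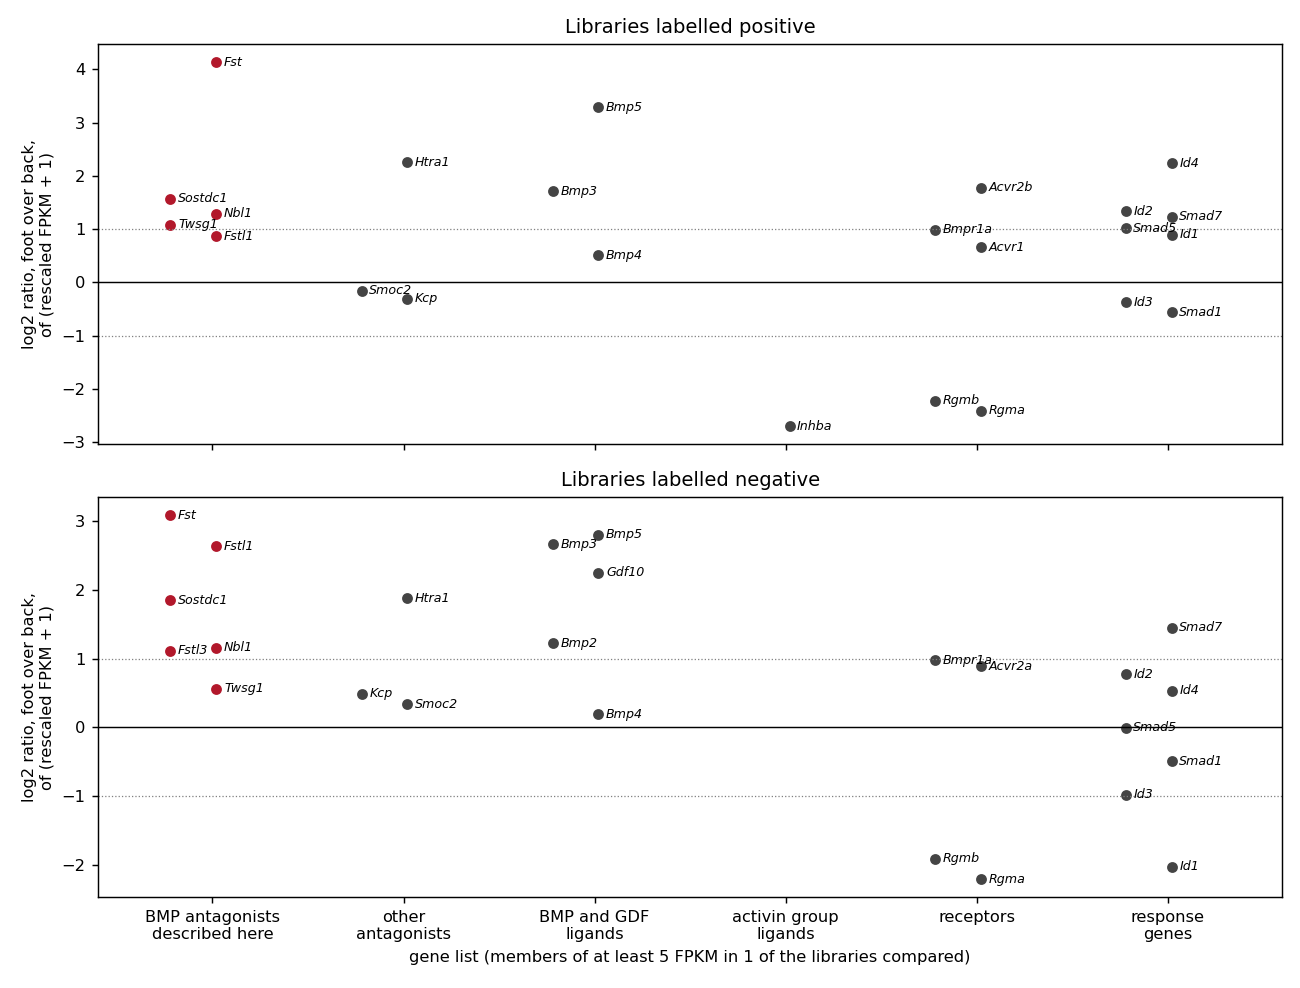
Log2 ratio of foot over back (vertical axes, rescaled FPKM + 1) for genes of 6 BMP pathway lists (horizontal axis) in the libraries labelled positive (upper panel) and negative (lower panel); each point is a gene of at least 5 FPKM in 1 of the libraries compared and above 0 in both, red for the antagonists followed here, and dotted lines mark the 2-fold line. Fst and Bmp5 lie high in both panels, and Rgma and Rgmb lie low in both.

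Across all 4 libraries, the 5 genes with the pattern nearest to that of Fst included Chodl, Anxa1, Bmp5 and Cd9. Nearness was the Euclidean distance between centred log2 values of (rescaled FPKM + 1) over the 4 libraries, among 6621 coding genes of at least 5 FPKM in any library and above 0 in all, so it rests on 4 points that share libraries with Fst. Chodl, which encodes a membrane lectin, lay at a distance of 0.56, with 17 FPKM in foot+, 16.3 FPKM in foot-, 0.349 FPKM in back+ and 0.101 FPKM in back-. Unlike Fst, its level was close between foot+ and foot-, with a log2 ratio of 0.25. Anxa1 and Bmp5 followed at distances of 0.65 and 0.69, and Cd9 at 0.73.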

How the data were processed

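Messenger RNA of sorted dermal cells was sequenced as TruSeq libraries on an Illumina HiSeq instrument, per the labels' protocols, 1 library per group. The authors used TopHat and Cufflinks on mm9, per the submitters' processing notes; the sources used here give no versions, settings, annotation release or strand handling. The deposited FPKM values, per the file headers, carry 2 bounds and a status flag; the confidence level is not stated and read counts were not used here.

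From these, FPKM was added up over entries of 1 symbol, and loci joining several genes counted once (33064 units). Of 22 symbols altered to dates in 1 library, 5 were restored by gene ID and the rest left out; none is a member. Protein-coding status came from GENCODE vM21 and RefSeq symbols, and 20395 coding units with an OK status in all 4 libraries were the background. FPKM was divided by median-ratio factors of 1.09, 1.26, 0.936 and 0.791 (foot+, foot-, back+, back-), from 7582 coding units of at least 1 FPKM in all libraries, and 1 was added before log2. A gene counted as apart at a log2 ratio of at least 1 with the larger FPKM at least 5, or where rescaled bounds did not overlap. Coding units listed at 0 numbered 8104 to 8986 in the foot and 6159 to 6459 in the back, so a 0 is printed as listed at 0. Scaling and the 2-fold rule were tried on simulated data with changes in 1 library only, a simpler setting than these data. The rule of bounds apart was not tried there. Python 3.11.15, numpy 2.4.6 and pandas 2.3.3 were used. The members and gene lists were chosen with earlier results of these data known. Named were all members, Axin2, per list up to 4 genes apart by the 2-fold rule in a comparison and the 2 highest, and the genes nearest to Fst; 2 genes that this rule covers are not reported here. Motifs and the count over all 4 libraries together were added after values were seen.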

Additional observations from a re-analysis of the deposited data

Results flagged for a closer look

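Fstl1 moved in opposite directions between the sorted fractions of the 2 skins, with rescaled bounds apart in each skin. Its log2 ratio of labelled positive over labelled negative was -0.44 in the foot and 1.33 in the back, a difference of -1.77. With 1 library per group this difference was not tested. In the foot it follows labels that Axin2 transcript did not bear out, and 2 of the 4 Fstl1 values lie above their own upper bounds. With midpoints in place of those values the difference was -1.53, and as deposited it was -2.21.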

How the results depend on the processing

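Of 50 member log2 values recomputed under 8 alternatives (400 values), 356 stayed within the half-width and 44 moved further, 22 of them without rescaling and 16 with a pseudocount of 0.1. No value past the 2-fold line changed sign, and 3 others did, all without rescaling: Fst in the back (0.07), and Fstl3 (-0.21) and Nbl1 (-0.30) in the foot minus back difference. Without rescaling, 3 members in place of 5 had bounds apart between the foot fractions, and 1 in place of 2 passed the 2-fold line in the foot minus back difference. With factors from genes of at least 10 FPKM, 1 member in place of 0 passed that line between the foot fractions. With members of at least 1 FPKM, bounds were apart for 6 in place of 3 between the back fractions and for 8 in place of 5 between the skins for the positive label, and with no filter for 7 and 9. The count of 5 members with both foot libraries above both back libraries held under the 7 alternatives that apply to it, which were added after the data were seen.

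The median log2 ratio of coding genes as deposited was -0.23 (foot fractions), 0.21 (back fractions), 0.30 and 0.76 (foot over back, labelled positive and negative). The split of coding genes past the 2-fold line into higher and lower was, rescaled and as deposited, 687 and 726 against 543 and 994 in the foot, 216 and 190 against 319 and 138 in the back, and 1069 and 876 against 1373 and 684 for foot over back with the positive label. It was 1051 and 701 against 2350 and 291 with the negative label, and 893 and 990 against 556 and 1721 for the difference. No paired analysis was possible because each group holds 1 library, and for the same reason no library could be left out. Low members (Nog, Bmper, Chrdl1, Grem1, Fstl3) are limited by their low levels, with half-widths of 15.1% to 143% of their FPKM where above 0.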
